A study of Mus musculus with 6 samples.

Results

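The genes described here are 9 ligands and receptors of the HGF, EGF and neurotrophin systems, chosen by symbol from the 29018 genes of the deposited expression table: the ligands Hgf, Ereg, Areg, Hbegf and Bdnf and the receptors Met, Egfr, Ntrk2 and Ntrk3. Each symbol had 1 row. RNA from calvarial osteoblasts, the bone-forming cells of the skull vault, of neonatal mice was sequenced after osteogenic differentiation in culture. The cells were wild type (WT, 3 libraries) or lacked the kinase NDR1, encoded by Stk38 (NDR1 KO, 3 libraries). Strain, sex, the KO allele and whether replicates came from separate animals or cultures were not given in the sources used here, so p-values reflect no more than how the libraries of a genotype differed, a spread that could be technical.

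All of these proteins meet at receptor tyrosine kinases, which dimerise when a ligand binds and switch on the RAS-ERK and PI3K-AKT cascades. HGF is secreted by mesenchymal cells as an inactive precursor, is cut by serine proteases and acts through MET. The EGF-family ligands are made as membrane-anchored precursors that ADAM proteases release, and EGFR activity in bone is known for keeping osteoblast precursors dividing and holding back their maturation. BDNF acts through TrkB, the product of Ntrk2, and neurotrophin-3 through TrkC, the product of Ntrk3. These receptors are best known from neurons and are also made by bone cells. In the KEGG annotation deposited with the table, 7 of the 9 genes (Hgf, Met, Egfr, Ereg, Areg, Bdnf and Ntrk2) carried the PI3K-Akt pathway, which the series title names, among 322 genes that did.

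Total counts ran from 61461870 to 76159034 in the KO libraries and from 66308530 to 68395991 in WT. Stk38 itself had 3843, 3004 and 4040 counts in KO replicates 1 to 3 and 4781, 5082 and 5331 in WT replicates 1 to 3, a log2 change of -0.61 ± 0.05 (SE). Its transcript was thus lower in all 3 KO libraries but still read. The osteoblast genes Col1a1, Runx2, Sp7 and Alpl were read in both genotypes, Col1a1 at a mean of 3363 FPKM in KO and 4469 FPKM in WT. Levels below are CPM, counts relative to library size, scaled between libraries by TMM, or FPKM. FPKM is a deposited level relative to library size and to a length per gene, for these genes near the union of their exons. Changes are log2 KO over WT, tested with edgeR (quasi-likelihood) and adjusted by Benjamini-Hochberg over the 18221 genes tested, with a threshold of 0.05. Gene positions are those deposited, whose mouse genome build is not stated. A level is followed by its SD over 3 libraries and a log2 change by its SE.

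The ligands that could be tested were higher in KO, while of the receptors some were lower and none was called higher. Of the 8 members that passed the filter on low counts, 6 passed the test, against 22.9% of all genes tested. All 4 ligands tested were higher in KO (Hgf, Ereg, Hbegf and Bdnf; 11.2% of all genes tested were higher). Of the 4 receptors, Egfr and Ntrk2 were lower (11.7% of all genes tested were lower), and Met and Ntrk3 were not called. Areg was read too rarely to test. The CPM of the groups did not overlap for 7 of the 8 genes, as for 38.2% of all genes tested. The members were chosen with earlier results of these data known, so these shares are a description and not a test of the set.

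**Figure D1:**
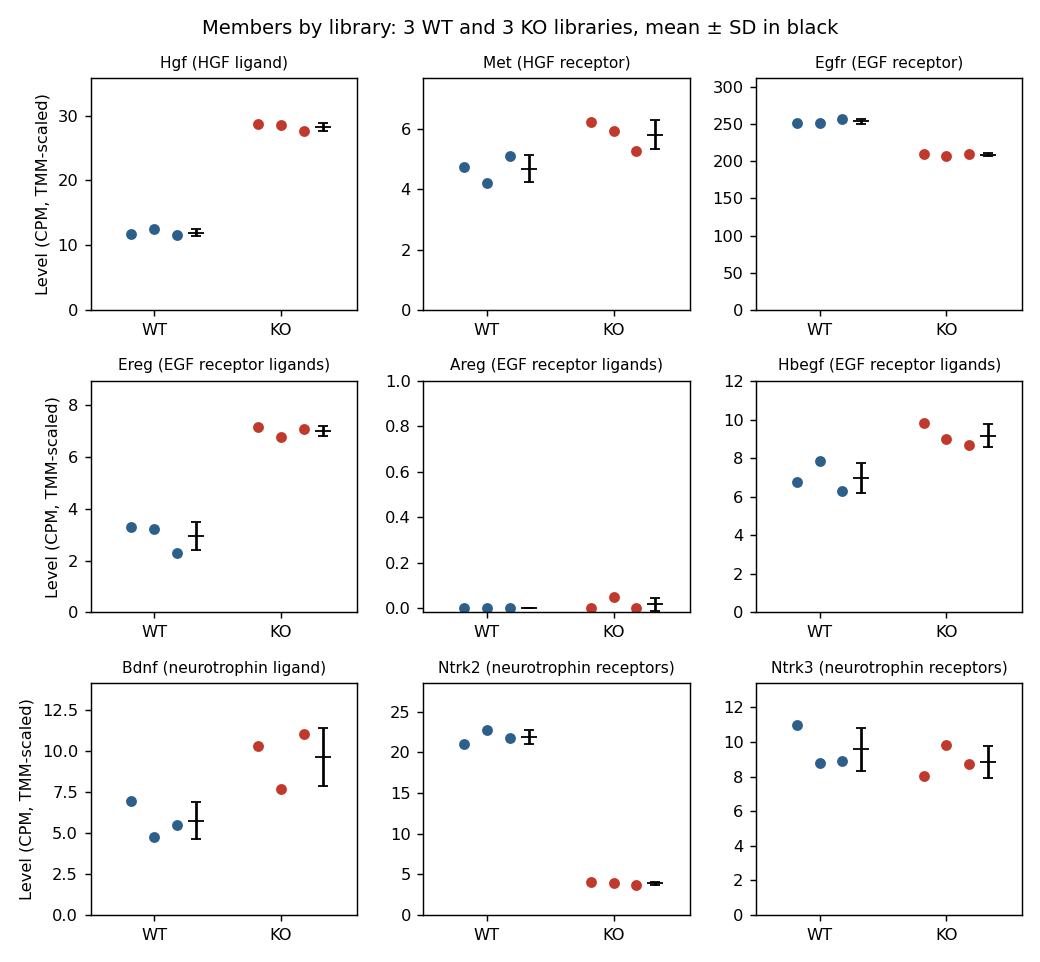
Level of each of the 9 genes in CPM (y axis, starting at or just below 0) in 3 WT (blue) and 3 KO (red) libraries, with the mean ± SD in black. The KO points of Hgf and Ereg lie far above the WT points, those of Ntrk2 far below, those of Ntrk3 overlap, and Areg lies at or near 0 in all 6 libraries.

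Hgf (ENSMUSG00000028864, chromosome 5, 16758493 to 16825150, plus strand), hepatocyte growth factor, was the ligand with the highest mean level in both genotypes. It stood at 28.7, 28.6 and 27.6 CPM in KO replicates 1 to 3 and at 11.8, 12.5 and 11.5 CPM in WT replicates 1 to 3. All KO libraries lay well above all WT libraries, and the libraries within a genotype were close together. The fold was 2.38 with a 95% interval of 2.16 to 2.62 (log2 change 1.25 ± 0.06, edgeR's adjusted p = 2.93e-07). By FPKM the means were 3.77 ± 0.109 in KO and 1.53 ± 0.0678 in WT (SD, n = 3), which moved Hgf from the 39.9th percentile of tested genes in WT to the 55.1st in KO. Between KO libraries the coefficient of variation of Hgf was 2.27%, and counting alone gives 2.22% at its depth.

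Met (ENSMUSG00000009376, chromosome 6, 17463799 to 17573979, plus strand), the only known receptor of HGF, was read at low levels in these cultures. It stood at 6.23, 5.93 and 5.29 CPM in KO and at 4.74, 4.22 and 5.11 CPM in WT. The lowest KO library lay just above the highest WT library. At 0.31 ± 0.13 its log2 change was not called (edgeR's adjusted p = 0.128), and the 95% interval of 0.02 to 0.60 leaves room for a rise of 1.52-fold. It stayed uncalled under the 11 alternatives that tested it (adjusted p from 0.0789 to 0.309). The ratio of Hgf to Met FPKM was 4.94, 5.16 and 5.59 in KO and 2.67, 3.15 and 2.39 in WT.

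The promoters of the genes with the largest rise and the largest fall among those with a RefSeq window are shown next, since Hgf and Ntrk2 moved in opposite directions. Both are the 250 bases (for Hgf, those of the first of its 2 RefSeq starts) before the transcription start, on the plus strand of GRCm38.p6, in lower case. Capitals mark matches to 4 motifs searched on both strands, AP-1 (TGANTCA), CRE (TGACGTCA), TEAD (GGAATG) and RUNX (TGTGGT), the last being the core bound by the osteoblast factor RUNX2. The Hgf window has no capitals, and the capitals in the Ntrk2 window mark 1 match. RefSeq windows were found for 6 of the 9 genes, and the other entries, Ereg, Hbegf and Ntrk3, are named only.
Hgf, chr5:16553245-16553494: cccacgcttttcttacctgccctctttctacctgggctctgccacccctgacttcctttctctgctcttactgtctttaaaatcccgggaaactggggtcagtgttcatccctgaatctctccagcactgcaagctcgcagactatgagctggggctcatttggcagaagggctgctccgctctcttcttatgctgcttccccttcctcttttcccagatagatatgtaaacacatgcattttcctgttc
Ntrk2, chr13:58806319-58806568: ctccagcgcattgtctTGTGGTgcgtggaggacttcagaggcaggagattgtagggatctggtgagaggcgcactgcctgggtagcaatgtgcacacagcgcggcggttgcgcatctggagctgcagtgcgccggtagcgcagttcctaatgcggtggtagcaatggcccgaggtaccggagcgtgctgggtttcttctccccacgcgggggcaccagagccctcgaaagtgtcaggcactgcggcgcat

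The Hgf window held none of the 4 motifs, and 50.8% of its bases were G or C. The Ntrk2 window held 1 RUNX match, which begins 234 bases before the start, and was richer in G and C (62.8%) and in CpG (19, against 4 in the Hgf window and a median of 6 over all windows). Among 32851 windows of this length the RUNX letters occurred in 14%, TEAD in 12.6%, AP-1 in 6.75% and CRE in 1.55%. The Areg window held 1 CRE match, which begins 61 bases before the start, and the Met window 1 AP-1 match at 54 bases. In the GENCODE M21 annotation, 157 of the 250 bases of the Met window lie in exons. Of the 7 Bdnf windows 1 held an AP-1 match and 2 a TEAD match. A match is a description of letters and not a sign that a factor binds there.

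Egfr (ENSMUSG00000020122, chromosome 11, 16702203 to 16868158, plus strand), the EGF receptor, had the highest level of the 9 genes in both genotypes and fell slightly in KO. It stood at 210, 207 and 210 CPM in KO and at 252, 252 and 257 CPM in WT. The groups were far apart relative to a spread of 0.703% in KO and 1.26% in WT. The receptor was 1.21-fold lower in KO, with a 95% interval of 1.17 to 1.26 (log2 change -0.28 ± 0.02, edgeR's adjusted p = 1.83e-05). At 17.7 ± 0.115 FPKM in KO and 20.7 ± 0.263 FPKM in WT it lay at the 86.4th and 88.8th percentile of tested genes.

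Ereg (ENSMUSG00000029377, chromosome 5, 91222481 to 91241505, plus strand), epiregulin, a ligand of EGFR and ERBB4, rose as far as Hgf but from a lower level. It stood at 7.17, 6.78 and 7.07 CPM in KO and at 3.29, 3.24 and 2.31 CPM in WT. WT replicate 3 was the lowest of the 6 libraries, and all KO libraries were above all WT libraries. The fold was 2.38 with a 95% interval of 1.87 to 3.03 (log2 change 1.25 ± 0.16, edgeR's adjusted p = 2.21e-04). Without WT replicate 3 the log2 change was 1.10 and still passed (adjusted p = 5.64e-04).

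Hbegf (ENSMUSG00000024486, chromosome 18, 36637980 to 36648858, minus strand), heparin-binding EGF-like growth factor, rose less and its call was not firm. It stood at 9.83, 8.98 and 8.67 CPM in KO and at 6.79, 7.86 and 6.32 CPM in WT. The lowest KO value lay close above WT replicate 2, the highest WT value. The fold was 1.31 with a 95% interval of 1.10 to 1.56 (log2 change 0.39 ± 0.11, edgeR's adjusted p = 0.0296). Leaving out KO replicate 1 gave an adjusted p of 0.120 and leaving out KO replicate 2 gave 0.0632. For WT replicate 1 and WT replicate 3 the values were 0.0884 and 0.102, so Hbegf was no longer called in these 4 fits. Nor was it called when genes of all levels were tested (adjusted p = 0.0549 in edgeR).

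Areg (ENSMUSG00000029378, chromosome 5, 91287458 to 91296291, plus strand), amphiregulin, a further ligand of EGFR, was close to unread. Only KO replicate 2 held any counts, 3 in all, and the other 5 libraries held 0, which allows a level of up to 0.0459 CPM in any of the 3 WT libraries. No fold is given, since both genotypes were at or under 3 counts. Areg lies next to Ereg on chromosome 5, 46.0 kb beyond its end in the deposited coordinates, and the ligand genes Epgn and Btc flank the pair within a span of 375.5 kb. Of these neighbours only Ereg was read at more than 1 CPM, with Btc at 0.378 ± 0.205 CPM in KO and 0.340 ± 0.179 CPM in WT and Epgn at 0.0348 ± 0.0301 and 0.0907 ± 0.0914 CPM.

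The 3 EGF-family ligands together reached 3.62, 3.40 and 3.33 FPKM in KO and 2.03, 2.23 and 1.72 FPKM in WT, well under Egfr in every library. The ratio of Ereg to Egfr FPKM was 0.0919 ± 0.00213 in KO and 0.0318 ± 0.00630 in WT, and that of Hbegf to Egfr 0.103 ± 0.00657 and 0.0645 ± 0.00788 (SD, n = 3). These ratios compare mRNA of the same bulk cultures and say nothing of protein or of which cells made it.

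Bdnf (ENSMUSG00000048482, chromosome 2, 109505045 to 109557352, plus strand), brain-derived neurotrophic factor, rose with the widest spread among the tested members in KO. It stood at 10.3, 7.65 and 11.0 CPM in KO and at 6.97, 4.75 and 5.50 CPM in WT. KO replicate 2 was low for its group and lay just above WT replicate 1, so the groups came close without overlapping. The fold was 1.68 with a 95% interval of 1.29 to 2.18 (log2 change 0.75 ± 0.17, edgeR's adjusted p = 0.00929). Its coefficient of variation was 18.2% in KO and 19.7% in WT, where counting alone gives 3.77% and 5.14%. With limma on log2(FPKM + 1) and genes of all levels it was not called (adjusted p = 0.0735).

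Ntrk2 (ENSMUSG00000055254, chromosome 13, 58954383 to 59281784, plus strand), the BDNF receptor TrkB, showed the largest change of the members. It stood at 4.10, 3.91 and 3.67 CPM in KO and at 21.1, 22.8 and 21.8 CPM in WT. All KO libraries were far below all WT libraries, and both groups were tight. The gene was 5.63-fold lower in KO, with a 95% interval of 4.96 to 6.38 (log2 change -2.49 ± 0.08, edgeR's adjusted p = 1.69e-08). In counts the libraries held 313, 245 and 282 in KO and 1377, 1499 and 1462 in WT. The gene encodes both a full-length kinase and truncated forms without the kinase domain, and the counts pool all 6 transcripts that the table lists, so the change cannot be assigned to a form. On log2(FPKM + 1) the change was -0.78, where the pseudocount of 1 is about as large as the WT values and exceeds the KO values.

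Ntrk3 (ENSMUSG00000059146, chromosome 7, 77825707 to 78387760, minus strand), the neurotrophin-3 receptor TrkC, was not called, unlike its relative Ntrk2. It stood at 8.01, 9.81 and 8.70 CPM in KO and at 11.0, 8.80 and 8.90 CPM in WT. WT replicate 1 was the highest library, and the other 5 were mixed. At -0.12 ± 0.12 its log2 change was not called (edgeR's adjusted p = 0.560), and the 95% interval of -0.38 to 0.15 does not reach the interval of Ntrk2, -2.67 to -2.31. Without WT replicate 1 the log2 change was -0.00 (adjusted p = 0.992). The ratio of Bdnf to Ntrk2 FPKM was 7.81, 6.09 and 9.33 in KO and 1.03, 0.646 and 0.783 in WT.

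**Figure D2:**
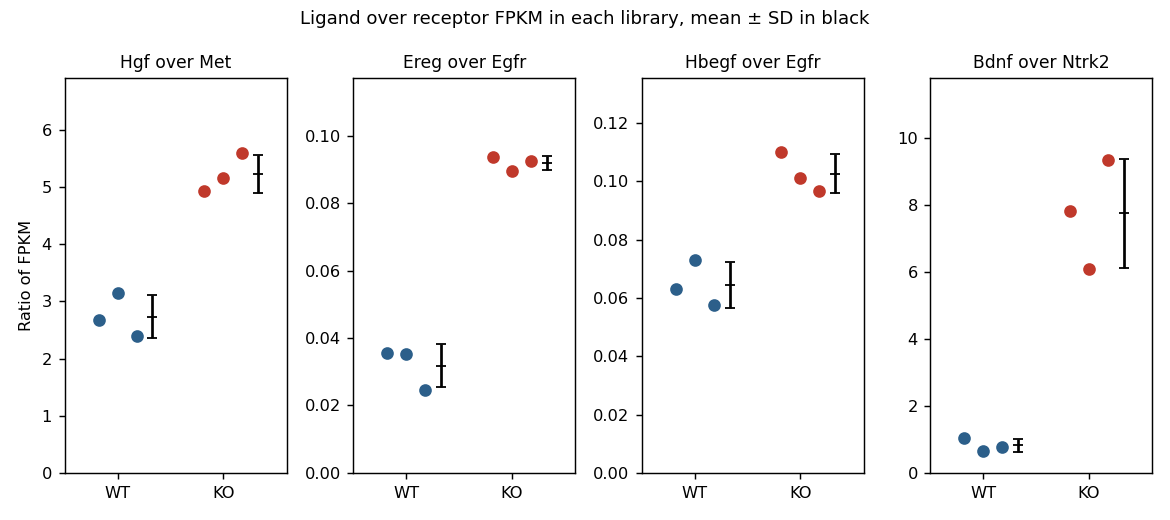
Ratio of ligand to receptor FPKM (y axis, starting at 0) for 4 pairs in each WT (blue) and KO (red) library, with the mean ± SD in black. In all 4 panels the 3 KO points lie above the 3 WT points, and the gap is widest for Bdnf over Ntrk2, at 7.74 ± 1.62 against 0.818 ± 0.193.

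By FPKM the order of levels in WT was Egfr, Hgf, Hbegf, Ntrk2, Bdnf, Ereg, Met, Ntrk3 and Areg. In WT the library values of Hgf and Hbegf overlapped, as did those of Ntrk2 and Bdnf, of Bdnf and Ereg, and of Ereg and Met. In KO the order was Egfr, Hgf, Hbegf, Ereg, Bdnf, Met, Ntrk3, Ntrk2 and Areg, and only Ereg and Bdnf overlapped. Ntrk2 thus moved from the fourth place in WT to the eighth in KO. The FPKM scale matters for these ranks and for the size of the ratios of ligand to receptor given above. The length implied by the ratio of count to FPKM was 20.4 to 20.6 kb for Ntrk2 and 32.1 to 32.3 kb for Ntrk3, near the union of all their exons in GENCODE M21 (19.3 and 30.2 kb) and far above their longest coding transcripts (8.74 and 19.7 kb). For Hgf the implied length was 7.63 to 7.69 kb, against 3.47 kb for the longest coding transcript. Scaled to the longest coding transcript, Ntrk2 stood at 2.50 ± 0.102 CPM per kb in WT and 0.445 ± 0.0247 in KO. On that scale its KO values overlapped those of Ntrk3 (0.449 ± 0.0460), and Ntrk2 still held the fourth place in WT and the eighth in KO.

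Among the other genes of these pathways, 21 of 87 tested were higher and 11 lower (36.8% called), with a median log2 change of 0.02 against 0.00 over all genes tested. Over all genes tested 22.9% were called, 11.2% higher and 11.7% lower, and the group counts below stand beside these shares. The list holds 95 genes in 11 groups.

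Around HGF, 3 of 9 tested genes were higher and 1 lower. St14, which encodes matriptase, a protease that can activate HGF, rose from 1.09 ± 0.250 to 3.39 ± 0.548 CPM (log2 change 1.63 ± 0.23, edgeR's adjusted p = 5.52e-04). The urokinase gene Plau rose from 21.4 ± 1.67 to 31.5 ± 2.89 CPM and Cd44, a co-receptor of MET, from 179 ± 3.73 to 233 ± 8.83 CPM. Mst1r, the MET-related receptor RON, fell from 9.10 ± 0.432 to 6.20 ± 0.0173 CPM (log2 change -0.55 ± 0.10). The inhibitor of HGF-activating proteases Spint2 was read at under 1 CPM in both genotypes and was not called (adjusted p = 0.516).

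Of 6 other EGF-family ligands tested, only Nrg1, neuregulin 1, passed, at 14.5 ± 2.19 CPM in KO and 9.63 ± 0.890 CPM in WT (log2 change 0.59 ± 0.12, edgeR's adjusted p = 0.00443, but 0.0774 with limma on log2(FPKM + 1) and genes of all levels). Tgfa, another EGFR ligand, stood at 5.88 ± 0.812 and 5.41 ± 0.834 CPM and was not called. Of the partner receptors, Erbb2 was read at 45.9 ± 1.54 and 46.8 ± 2.36 CPM (log2 change -0.03 ± 0.05) and Erbb3 at 1.91 ± 0.558 and 1.64 ± 0.260 CPM, neither of them called. Erbb4 held 7, 11 and 8 counts in KO and 0 in WT and did not pass the filter.

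The proteins that free EGF-family ligands went both ways, with 2 of 9 genes higher and 3 lower. Adam17, the main sheddase of these ligands, stood at 116 ± 5.32 CPM in KO and 127 ± 1.31 CPM in WT (log2 change -0.13 ± 0.04, edgeR's adjusted p = 0.0324). That call was lost under 10 alternatives, among them library totals without TMM (log2 change -0.08) and leaving out KO replicate 2 or 3 or any WT library (adjusted p from 0.0641 to 0.113). Adam12 (-0.35 ± 0.03) and Adam19 (-0.38 ± 0.04) fell, and Adam9 (0.29 ± 0.03) rose. Rhbdf2, which encodes the carrier iRhom2 that brings ADAM17 to the cell surface and is abundant in macrophages, rose from 7.14 ± 0.901 to 10.8 ± 0.386 CPM (0.60 ± 0.11). Among 9 inhibitors of the receptors, Ptprj (0.39 ± 0.08) and the feedback inhibitor Errfi1 (0.13 ± 0.03) were higher and 7 were not called. Errfi1 lost its call without WT replicate 3 (adjusted p = 0.0559), and Ptprj with limma on log2(FPKM + 1) and genes of all levels (adjusted p = 0.0564).

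Among the other neurotrophins, Ntf3 and Ntf5 were read at low levels and not called. Ntf3, which encodes the ligand of TrkC, stood at 0.125 ± 0.0592 CPM in KO and 0.238 ± 0.138 CPM in WT. Of 5 other receptors and sorting receptors tested, 2 were lower and none higher. Sorl1 fell from 41.0 ± 3.21 to 26.3 ± 1.11 CPM and Sort1, sortilin, which binds proneurotrophins, from 113 ± 4.24 to 93.8 ± 3.14 CPM. Ngfr, the p75 neurotrophin receptor, stood at 3.96 ± 0.578 CPM in KO and 5.43 ± 0.545 CPM in WT and narrowly missed the threshold (adjusted p = 0.0578 in edgeR, 0.0384 in DESeq2). It passed in edgeR without KO replicate 3 (adjusted p = 0.0381).

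Pcsk5, a proprotein convertase, fell from 61.3 ± 2.32 to 29.9 ± 1.13 CPM (log2 change -1.04 ± 0.05, edgeR's adjusted p = 2.37e-07), and the other 3 convertases, Furin among them (-0.06 ± 0.03), were not called. Of 9 adaptors, Shc1 (-0.15 ± 0.03) and Sh2b1 (-0.22 ± 0.04) were lower and 7 were not called. Shc1 was not called with limma on log2(FPKM + 1) and genes of all levels (adjusted p = 0.0756). In the RAS-ERK core shared by all of these receptors, 4 of 15 genes were higher and 1 lower, all by small amounts, such as Braf (0.27 ± 0.05). Of 16 feedback and target genes of ERK, 8 were higher and 1 lower, with a median log2 change of 0.43. Among the 8, Ier3 lost its call in 7 of 13 alternatives, Etv4 in 3 of 13 and Etv1 in 1 of 11. Etv5 rose from 46.5 ± 2.38 to 68.2 ± 1.63 CPM (0.55 ± 0.05), the ERK phosphatase Dusp6 from 13.6 ± 1.08 to 20.5 ± 0.969 CPM (0.59 ± 0.08), Phlda1 by 0.77 ± 0.10 and Spred3 by 0.50 ± 0.08. The gene that fell was Spry1 (-0.49 ± 0.10), and its relative Spry4 (0.13 ± 0.10) was not called. Many other receptors feed into ERK, so these genes are not a readout of the 9 described here.

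**Figure D3:**
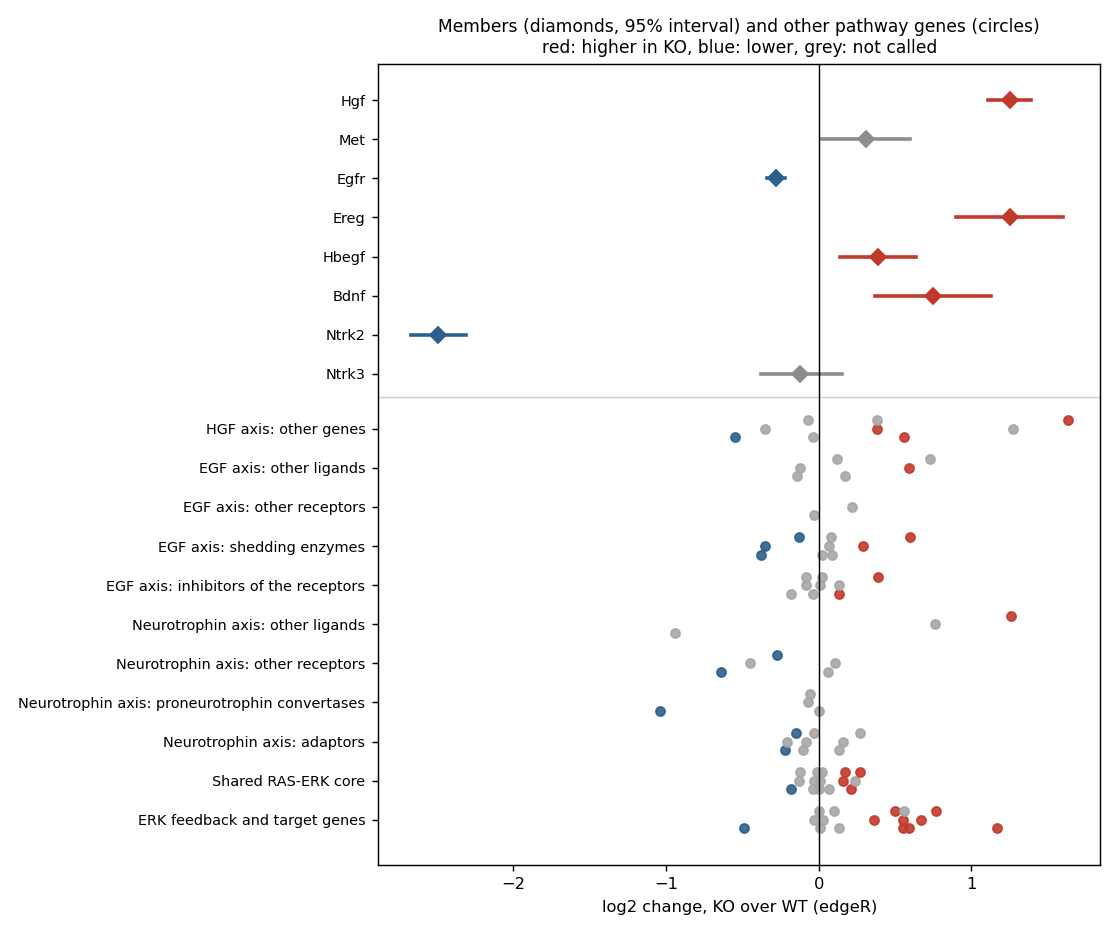
Log2 change of KO over WT (x axis) for the 8 tested members (diamonds with the 95% interval) and for 87 other genes of their pathways in 11 groups (circles). Red genes were higher, blue genes lower and grey genes not called at an adjusted p under 0.05 in edgeR. Ntrk2 lies farthest from 0, at -2.49, and ERK feedback and target genes hold 8 red circles and 1 blue.

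Marker genes of other cell types differed between the genotypes along with these genes. The counts of called markers below stand beside 11.2% of all genes tested that were higher and 11.7% that were lower. Of 16 macrophage markers 14 were higher in KO, with a median log2 change of 1.38. Their summed level ran from 1021 to 1126 CPM in KO and from 401 to 523 CPM in WT, and none was at 0. Macrophages are a known source of several growth factors, and the part of these cells in the rise of Hgf, Ereg, Hbegf and Bdnf was not tested. In libraries of whole cultures, fewer cells of a type and less RNA per cell cannot be told apart.

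Ntrk2 and Ngfr are also made by neurons and glia. The 8 neuron markers in the table summed to 48.3 to 55.2 CPM in KO and 16.2 to 18.3 CPM in WT, nearly all of it from Tubb3 and Stmn2, which were the 2 called higher, while Elavl4, Snap25 and Rbfox3 were at or near 0. The 7 Schwann cell markers summed to 40.8 to 44.7 CPM in KO and 27.4 to 31.9 CPM in WT. Both sums were higher in KO, opposite to Ntrk2. Endothelial markers (8 in the table) summed to 11.6 to 13.7 CPM in KO and 23.6 to 25.1 CPM in WT, and 4 of the 8 tested were lower. Adipocyte markers, the list with the lowest median, summed to 10.9 to 11.9 CPM in KO and 22.8 to 26.4 CPM in WT. Of 5 tested, 4 were lower, and the median log2 change was -4.41. Nearly all of the KO sum came from Pparg, the 1 not called, at 10.6 ± 0.540 CPM in KO and 12.2 ± 1.21 CPM in WT. Fabp4, 1 of the 4 lower, stood at 0.607 ± 0.215 CPM in KO and 6.84 ± 1.89 CPM in WT. Osteoclast markers (8 in the table) summed to 293 to 302 CPM in KO and 530 to 533 CPM in WT. Of these, 3 were lower and 5 were not called. Most of the difference between the sums lay in 2 of the lower genes. Mmp9 stood at 3.72 ± 0.593 CPM in KO and 144 ± 7.76 CPM in WT, and Ctsk at 218 ± 3.77 and 298 ± 6.35 CPM. The 10 osteoblast markers summed to less in KO, and nearly all of the sum was Col1a1 and Col1a2. Of the 10, 5 were lower, Alpl among them (log2 change -1.19 ± 0.06), and 4 were not called. Spp1 was the 1 that was higher (1.39 ± 0.07). The part of these cells in the change of Ntrk2 was not tested. Epithelial markers, which mark cells rich in Met and Egfr, summed to at most 2.84 CPM in any library.

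**Figure D4:**
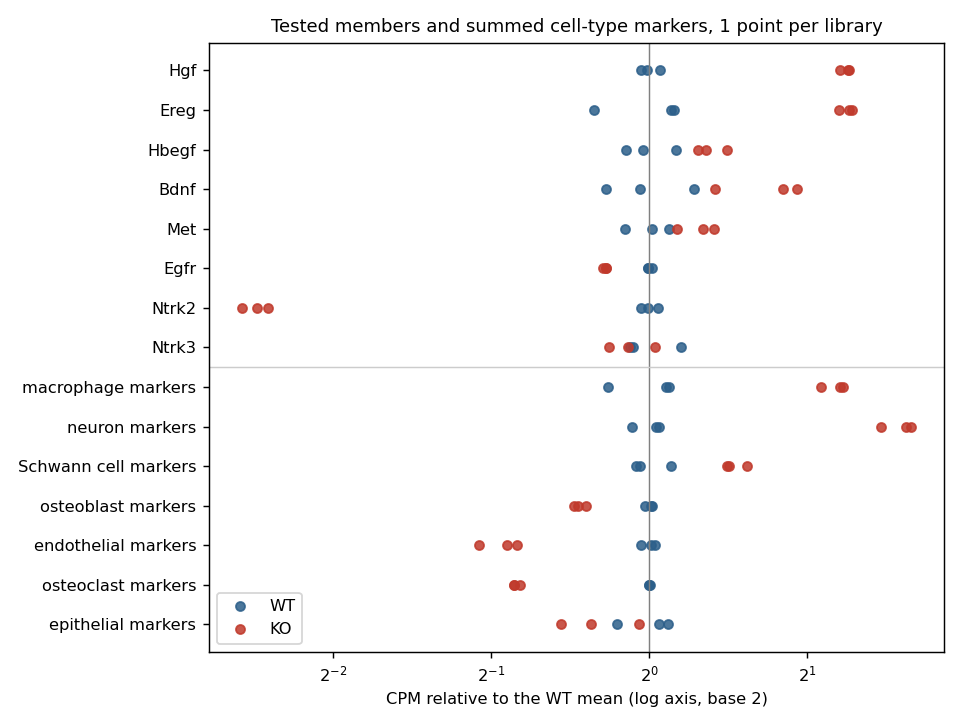
Level in each library relative to the WT mean (x axis, log scale, base 2) for the 8 tested members and for the summed CPM of 7 marker lists, with WT in blue and KO in red. The KO points of Hgf, Ereg and the macrophage markers lie near 2 times the WT mean or above it. Those of Ntrk2 lie far to the left of the endothelial and osteoblast sums. Adipocyte markers, with a median log2 change of -4.41 against -2.49 for Ntrk2, are not plotted.

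Genes whose pattern over the 6 libraries was most like that of a member were taken as those with the smallest root mean square difference in centred log2 CPM among 12827 genes. For Hgf they included Aldh1a1 (0.0279) and Rgs17 (0.0724). For Ereg they were Cdkn2a (0.0808), Col15a1 (0.0993) and Klhdc7a (0.103). Ntrk2 was closest to Cntnap2 (0.0260), whose log2 change was -2.46, then to Hmcn1 (0.0885) and Fndc1 (0.103). For Met, which changed little, 230 genes lay within 0.1, the nearest being Foxl2 (0.0303), Fgf2 (0.0342) and Lactb2 (0.0392). With 3 libraries a group, likeness is set mostly by the size of the difference between genotypes.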

How the data were processed

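Per the labels, poly(A) RNA was sequenced from 3 KO and 3 WT libraries. Whole-number counts per gene were deposited by the authors, and the sources used here do not say how reads were assigned to genes or whether strand was used. FPKM was also computed by the authors and deposited. The submitters' processing notes name cutadapt 1.9, HISAT2 2.0.4 and StringTie 1.3.4d. They list a human genome build although the identifiers are of mouse. None of the 9 genes has the coordinates of GENCODE M21 (GRCm38), so the build of the deposited coordinates is not settled, and they were kept apart from RefSeq's GRCm38.p6 promoter windows. Genes that overlap a member held few counts (at most 227 in total, against 8469 for Hgf).

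Counts were tested over the whole table with edgeR 4.0.16 (TMM, filterByExpr, quasi-likelihood, two-sided) in R 4.3.3. The plan named this test for a file that holds counts. SEs were derived from the log2 change and its F statistic. The biological coefficient of variation was 12.6%. The pipeline was tested on simulated data. Alternatives were DESeq2 1.42.0, edgeR without TMM, without a filter or with a replicate block, limma 3.58.1 on log2(FPKM + 1) or log2(FPKM + 0.1) with and without a minimum mean FPKM of 1, and leaving out each library. Equal replicate numbers did not pair libraries (correlations of deviations -0.046, -0.021 and 0.016). Limits for 0 counts cover counting error alone.

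The members and lists were chosen with earlier results of these data known. All members were named, then up to 4 genes of lowest p in each pathway group, further fixed genes (Erbb2, Erbb3, Errfi1, Adam17, Rhbdf2, Ngfr, Ntf3, Spint2, Dusp6 and Spry4), and the 3 genes most like each of 4 members, with log2(CPM + 0.1). Some genes these rules name are not reported here. Btc, Epgn, Erbb4 and Spry1 were chosen after their values were seen. Of the marker lists not named in the report, skeletal muscle had 1 of 6 tested lower, smooth muscle and pericyte 5 of 7 higher and 1 lower, and mast cell none of 2 called.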

Additional observations from a re-analysis of the deposited data

How the results depend on the processing

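Hgf, Ereg, Egfr and Ntrk2 kept their direction and their call in each of the alternatives that tested them (13 for Hgf, Ereg and Egfr, 11 for Ntrk2), and Met and Ntrk3 stayed uncalled in 11 each. Log2 changes over the 6 fits that each leave out 1 library ran from 1.22 to 1.28 for Hgf, 1.10 to 1.34 for Ereg, 0.32 to 0.48 for Hbegf, 0.63 to 0.91 for Bdnf, 0.24 to 0.38 for Met, -0.29 to -0.27 for Egfr, -2.53 to -2.45 for Ntrk2 and -0.20 to -0.00 for Ntrk3. Hbegf was not called in edgeR with no low-count filter (log2 change 0.40) or with limma on unfiltered log2(FPKM + 1) (0.27, adjusted p = 0.0809), and Bdnf not in the latter (0.42). Both fits test all 29018 genes. On log2(FPKM + 1) Ereg changed by 0.66, Hgf by 0.92 and Met by 0.14. With the replicate block Hgf stood at 1.25, Ereg at 1.26, Hbegf at 0.39, Bdnf at 0.75, Met at 0.31, Egfr at -0.28, Ntrk2 at -2.49 and Ntrk3 at -0.11, with no change of call, and 1912 genes were higher and 1976 lower, against 2048 and 2131 without it. The number of lower genes was 1267, 1254 and 1246 in limma's tests on FPKM (pseudocount 1, pseudocount 0.1, and no filter). Of all calls 49.0% were higher after TMM, 63.0% without TMM and 64.4% in limma on log2(FPKM + 1). Leaving out 1 library gave 1588 to 1731 higher and 1712 to 1893 lower genes. Of 50 other pathway genes checked, 13 changed their call in at least 1 alternative. They include Araf, Etv1, Etv4 and Ier3, each counted as higher. The cause of these changes was not tested. None of the 50 changed sign in an alternative while called in it or in the main fit. Signs did change where neither fit called the gene, as for Egf (log2 change -0.12 in the main fit and 0.07 without KO replicate 1). Depth limits Areg, at 0 to 3 counts, more than any other member.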
